A study of Mus musculus with 4 samples.

Results

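A set of 10 genes for receptor tyrosine kinases that respond to growth factors, ephrins or collagen was followed in mouse osteoblasts (cells that build bone) in culture, before and during insulin treatment. The genes are Egfr, Erbb2, Pdgfra, Pdgfrb, Fgfr1, Fgfr2, Fgfr3, Met, Epha3 and Ddr2. They were chosen by name, with earlier results of these data known. Every probe set annotated to 1 of these symbols alone was taken. That gave 29 probe sets of 45037 on the array that are not controls, and 10 genes of 18193 with such an annotation. No probe set shared a member symbol with another gene. A probe set is a group of short probes that together read 1 transcript region, and its value is an intensity on a linear scale.

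Receptor tyrosine kinases span the cell membrane. A ligand outside the cell brings receptors together, the kinase part phosphorylates tyrosines, and adaptors that bind these tyrosines pass the signal to Ras and ERK, PI 3-kinase and phospholipase C. In the osteoblast lineage PDGF receptors are known for proliferation and migration of precursors, FGF receptors for growth and differentiation, EGFR for holding precursors in an immature state, and DDR2 for sensing fibrillar collagen. The insulin receptor belongs to the same superfamily.

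The series holds 4 arrays in 4 groups with 1 array each. The control was labelled 0 h and had no insulin, and the others had 10 nM insulin for 6, 12 or 24 h after serum starvation of confluent cells. All 4, the control included, are labelled with the same deletion, which the growth protocol gives as the IGF-1 receptor and the genotype entry as IGF-1 null. The 4 probe sets of Igf1 all read at least 363, and the brightest had 1641, 5532, 5983 and 6024 at 0, 6, 12 and 24 h. The brightest Igf1r probe set had 388, 259, 265 and 319. The Igf1 values go against an IGF-1 null, and the Igf1r values against a missing receptor, unless the probe sets lie outside the deleted part. The labels do not place that part, so which deletion is meant is not settled here. Nothing used here states the sex, age or strain of the source animals or how the cells were obtained. There are no replicates, so differences below are between single arrays, with no error or p-value, and precision is limited by having 4 arrays. An untreated array later than 0 h was not analysed here, so insulin and time in culture cannot be told apart.

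The 0 h array stood apart from the insulin arrays in ways that reach beyond these receptors. Eif2s3y, a gene of the Y chromosome, read 12.2 at 0 h and 295 to 326 on the insulin arrays, and Xist, made by the inactive X chromosome, had 109 and 1278 to 1636. Median log2 differences from 0 h, averaged over the insulin arrays, ran from -0.25 on chromosome 8 to 0.34 on chromosome 4. Of 9 osteoblast markers 7 had a probe set with 1 symbol. Col1a2, a chain of type I collagen, was bright on every array (20828 to 24963), but Sp7, Alpl and Pth1r had 60.8, 61.5 and 36.9 at 0 h against at least 125, 523 and 703 with insulin. Summed intensities of marker lists also moved, from 5990 at 0 h to 43536 to 46192 for 5 smooth muscle genes, from 903 to 4921 to 6892 for 7 macrophage genes, and from 958 to 6260 to 10745.5 for 5 cartilage genes. For 4 adipocyte genes the sum was 10435 at 0 h and 3989 to 8205 with insulin, but the genes parted. Lpl had 9525 at 0 h and 1492 to 3035 with insulin, while Adipoq had 23.4 and 511 to 1141 and Fabp4 664 and 1879 to 3834. Of 6 endothelial markers 5 were below the brightness filter described next, among them Pecam1 and Cdh5 at 13.8 to 31.6 and Tek, which had 21.3 at 0 h and 38.6 to 40.1 with insulin. Kdr was above it, at 111 to 137. No marker was listed at 0, which background-corrected intensities of this kind do not reach. The part of these shifts in the receptor differences was not tested, and in bulk RNA fewer cells of a type and less RNA per cell cannot be told apart. Results against 0 h are therefore followed by differences among the insulin arrays alone.

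Of the 10 receptors 5 differed at least 2-fold from 0 h on all 3 insulin arrays by at least 1 probe set above the brightness filter. Epha3, Egfr and Fgfr2 were higher, and Pdgfra and Met were lower. A gene with more probe sets has more chances to pass this rule, and its share over all genes was not counted. By the brightest probe set of each gene 2 were higher and 2 lower, against 10.0% and 4.0% of all genes above the filter. Of the 29 probe sets, 23 had a mean intensity over the 4 arrays at or above 67.8, the median of all probe sets, and these entered the counts. Of these 23, 7 were at least 2-fold higher at all 3 times, which is 30.4%, and 4 were at least 2-fold lower, 17.4%. Over all 19915 named probe sets above the filter the shares were 8.88% and 4.37%. Probe sets of 1 gene read the same RNA, so these counts are not of independent items. Because the members were chosen with earlier results of these data known, the shares do not show that receptors differ more often than other genes. Among the 7, the 4 Epha3 probe sets were below the filter value at 0 h and passed through their insulin values. By any amount, 16 of the 23 were higher at all 3 times, against 42.0% of all named probe sets, and 4 were lower, against 44.5%. The other 5 receptors, Erbb2, Pdgfrb, Fgfr1, Fgfr3 and Ddr2, had no probe set that reached 2-fold at any time.

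**Figure D1:**
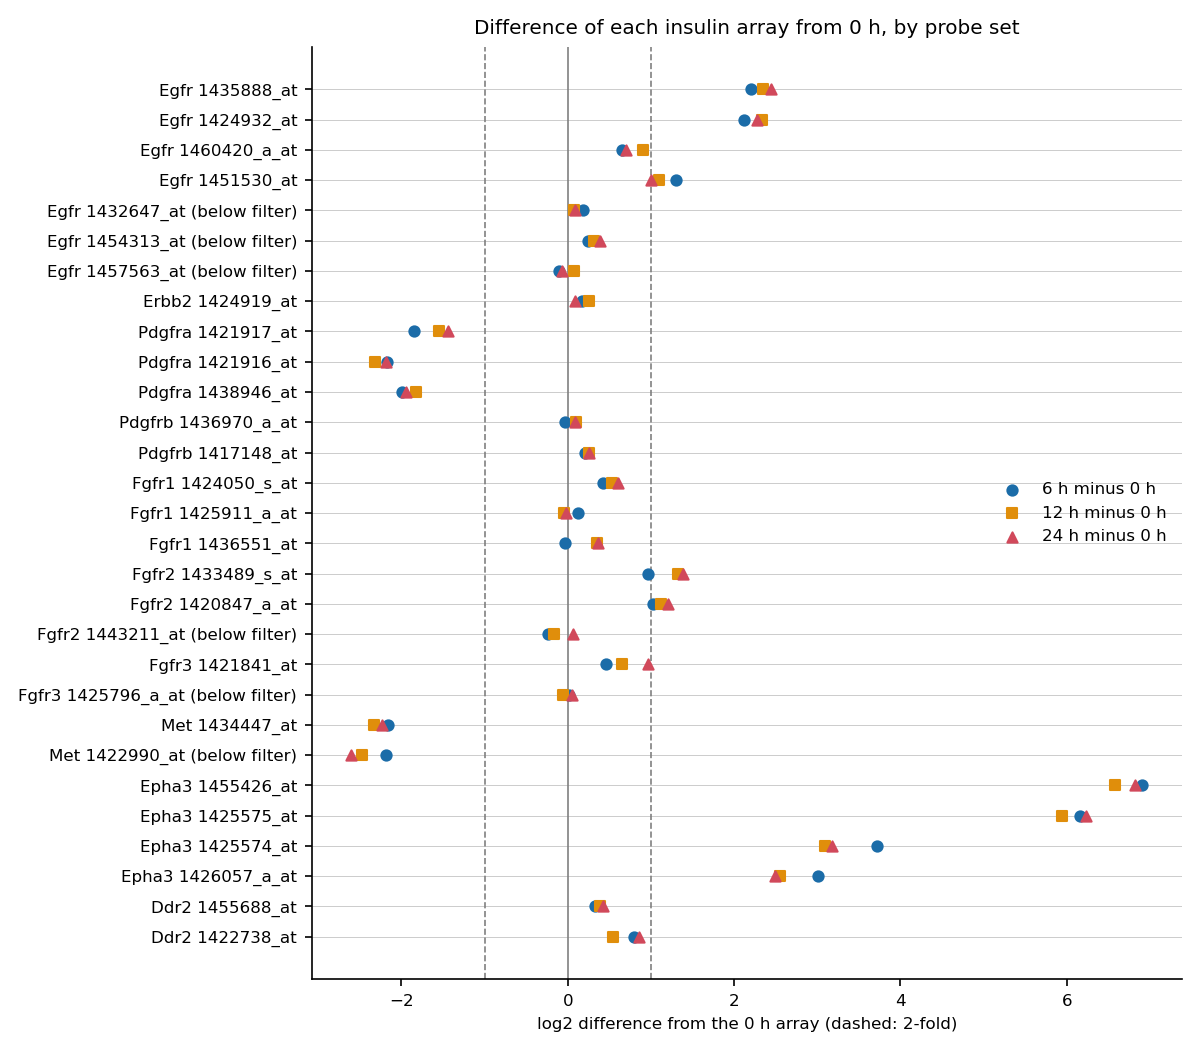
The log2 difference of each insulin array from the 0 h array (x axis) is plotted for all 29 probe sets (rows), with circles for 6 h, squares for 12 h and triangles for 24 h and dashed lines at 2-fold. The 4 Epha3 probe sets lie farthest to the right, and the 3 Pdgfra and 2 Met probe sets lie left of the lower line.

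At the separate times the counts were close. At 6, 12 and 24 h 8, 9 and 8 member probe sets were at least 2-fold higher, against 9.73%, 10.6% and 10.2% of all named probe sets above the filter. At each time the same number, 4, was at least 2-fold lower, against 5.25%, 6.46% and 5.98%. When another array was put in the place of 0 h, 0 of the 23 member probe sets were 2-fold apart from all 3 remaining arrays, for the 6 h, the 12 h and the 24 h array alike. Over all 19915 named probe sets above the filter these numbers were 1, 0 and 0, so the zeros are not particular to the receptors.

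The promoters of Epha3, Egfr, Pdgfra and Met are shown because they lie at the start of the transcripts with the largest differences. Each line gives the 250 bases before the annotated start, 5′ to 3′ on the strand of the gene, from RefSeq on build GRCm38.p6. They are chr11:16751953-16752202 for Egfr and chr6:17463707-17463956 for Met on the plus strand, chr5:75152001-75152250 for Pdgfra on the plus strand and chr16:63864176-63864425 for Epha3 on the minus strand. Capitals mark matches, on either strand, to any of 6 motifs. The GC box was searched as GGGCGG. For the TATA box the letters were TATAAA. The CCAAT box is named by its letters. An E-box was taken as CACGTG. The AP-1 site was read as TGANTCA, with N for any base. The FoxO site was searched as GTAAACA. None of the printed matches overlap.
Epha3: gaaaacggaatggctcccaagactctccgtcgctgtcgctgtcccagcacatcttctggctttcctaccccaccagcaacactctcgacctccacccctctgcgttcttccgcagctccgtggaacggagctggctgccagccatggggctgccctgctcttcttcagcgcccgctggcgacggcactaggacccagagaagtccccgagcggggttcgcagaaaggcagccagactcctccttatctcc
Egfr: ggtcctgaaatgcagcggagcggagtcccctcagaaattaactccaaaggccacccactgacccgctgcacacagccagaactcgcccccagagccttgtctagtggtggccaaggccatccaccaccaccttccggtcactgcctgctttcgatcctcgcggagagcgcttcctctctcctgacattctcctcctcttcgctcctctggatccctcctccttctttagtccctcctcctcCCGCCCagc
Pdgfra: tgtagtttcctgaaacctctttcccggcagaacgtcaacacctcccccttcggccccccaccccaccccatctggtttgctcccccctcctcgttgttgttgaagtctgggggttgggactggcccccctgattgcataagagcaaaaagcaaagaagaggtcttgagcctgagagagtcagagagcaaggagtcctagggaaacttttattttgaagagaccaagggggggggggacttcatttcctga
Met: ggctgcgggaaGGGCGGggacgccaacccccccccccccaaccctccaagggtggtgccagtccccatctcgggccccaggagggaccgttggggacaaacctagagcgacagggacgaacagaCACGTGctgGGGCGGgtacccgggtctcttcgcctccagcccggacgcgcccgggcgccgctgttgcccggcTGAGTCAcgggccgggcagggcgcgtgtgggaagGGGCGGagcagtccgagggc
The Met window held 3 GC boxes, 1 E-box and 1 AP-1 match, and the Egfr window 1 GC box. The Epha3 and Pdgfra windows held none of the 6 motifs. Among 32851 windows of the same length over all genes, 32.7% held a GC box, 6.02% an E-box, 6.75% an AP-1 match, 12.4% a TATA box, 33.8% a CCAAT box and 3.17% a FoxO match. A match is a run of letters and not a bound site. The windows of the 2 receptors that were lower differed in base composition. The Met window was 74.0% G and C with a CpG content of 0.704 of that expected from its bases, and the Pdgfra window was 54.4% with 0.216. Epha3 had 62.8% and 0.683, Egfr 60.8% and 0.551, and the median over all windows was 52.4% and 0.373. Windows were found for 8 of the 10 members, and those for Fgfr1 and Pdgfrb were not used here.

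Epha3, a receptor for ephrin-A ligands that guides cell repulsion and adhesion, had the largest difference of the members. The intensities of its brightest probe set were 12.0 at 0 h, 1436 at 6 h, 1139.8 at 12 h and 1354 at 24 h. The next had 8.51, 605, 523 and 637. The control value is the low one in both, and the insulin arrays lie close to one another. All 4 Epha3 probe sets at 0 h (8.51 to 23.6) were below 24.3, the lower quartile of that array, so the size of each fold is set mainly by a value near background. Relative to 0 h the brightest stood at 120.1, 95.3 and 113-fold in time order, and the next at 71.1, 61.4 and 74.8-fold. The other 2 probe sets were 5.60 to 13.1-fold higher. The 4 Epha3 probe sets passed the brightness filter through their insulin values, so a difference from 0 h was built into their passing, as it was for the dimmest Egfr probe set counted. The promoter given above showed no match to the motifs searched.

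The EGF receptor gene Egfr was higher with insulin by 4 probe sets above the filter, and its partner Erbb2 was close to its control level. EGFR binds EGF, TGF-alpha and HB-EGF, while ERBB2 has no ligand of its own and pairs with other members of its family. The brightest Egfr probe set had 152, 704, 776 and 830.0 at 0, 6, 12 and 24 h, which is 4.62, 5.09 and 5.45-fold above 0 h. The second had 139.5, 605, 705 and 676. In both the 3 insulin arrays lie well above the control and span 1.18 and 1.17-fold among themselves. The next, whose _a_at suffix marks a probe set shared by transcripts of 1 gene, had 315, 495, 592 and 513, a smaller difference of 1.57 to 1.88-fold. The dimmest of the 4 had 57.4, 142, 123 and 114, which is 2.47, 2.14 and 1.99-fold higher. The remaining 3 Egfr probe sets were below the filter and within 1.31-fold of 0 h at each time, and with the mean log2 of all 7 the difference averaged over the insulin arrays was 0.98, short of 2-fold, in place of 2.33. Erbb2 has 1 probe set here, with 189, 212, 226 and 201, and was 1.07 to 1.20-fold above 0 h. Over the named probe sets above the filter 73.3% had a mean difference at least as large as that of Erbb2.

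The PDGF receptor genes parted. Pdgfra, which binds the A, B and C chains of PDGF and marks mesenchymal precursors, was lower with insulin by all 3 of its probe sets. Pdgfrb, which marks pericytes and stromal cells and binds PDGF-B and PDGF-D, was near its control level. The brightest Pdgfra probe set had 6099, 1699, 2089.8 and 2254 at 0, 6, 12 and 24 h, or 3.59, 2.92 and 2.71-fold lower. The second had 1022, 226, 206 and 224, and the dimmest had 786, 197, 221 and 205. In all 3 the control is the high value and no insulin array comes near it. The brightest Pdgfrb probe set had 4977, 4882, 5317 and 5307, and the other had 882, 1017, 1051 and 1052. The first crossed its control value between times, and the second was 1.15 to 1.19-fold above it.

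Met, the receptor for hepatocyte growth factor, was lower with insulin by both of its probe sets. The brighter had 746, 167, 148 and 158 at 0, 6, 12 and 24 h, or 4.48, 5.02 and 4.71-fold lower. The other had 129, 28.4, 23.2 and 21.2. Its mean over the arrays was below the filter, and its insulin values lay near the lower quartiles of those arrays, 23.0 to 23.3, so its fold of 4.54 to 6.07 rests on values near background. The control was the high array in both.

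Among the FGF receptor genes Fgfr2 was higher, Fgfr3 was higher by less than 2-fold, and Fgfr1 depended on the probe set. FGFR2 and FGFR3 are receptors whose activating mutations disturb skull sutures and growth plates, and FGFR1 is found broadly in mesenchyme. The brightest Fgfr2 probe set had 419, 816, 1049.8 and 1097 at 0, 6, 12 and 24 h, or 1.95, 2.50 and 2.62-fold above 0 h. The second had 184, 374, 401 and 425, or 2.04, 2.18 and 2.31-fold, and it was the only 1 of the Fgfr2 probe sets past 2-fold at all 3 times. With quantile normalization its 6 h log2 difference was 0.96 in place of 1.03, which ends that call. Another Fgfr2 probe set had 24.8 to 30.6, below the filter. Fgfr3 had 139, 192, 219 and 272 by its brighter probe set, which is 1.38, 1.57 and 1.95-fold above 0 h. Its other probe set, below the filter, had 46.7 to 50.4. The brightest Fgfr1 probe set had 1089, 1460.4, 1573 and 1653, up to 1.52-fold above 0 h. The second Fgfr1 probe set had 853, 931, 830.1 and 843, and the dimmest had 96.1, 94.1, 123 and 123. Both lay on either side of their control values.

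Ddr2, a receptor that is activated by fibrillar collagen instead of a soluble factor, was slightly higher by both probe sets. The brighter had 1284, 1613, 1684 and 1727 at 0, 6, 12 and 24 h, or 1.26, 1.31 and 1.34-fold above 0 h. The other had 445, 770.3, 649 and 805. Every insulin array lay above the control in both.

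**Figure D2:**
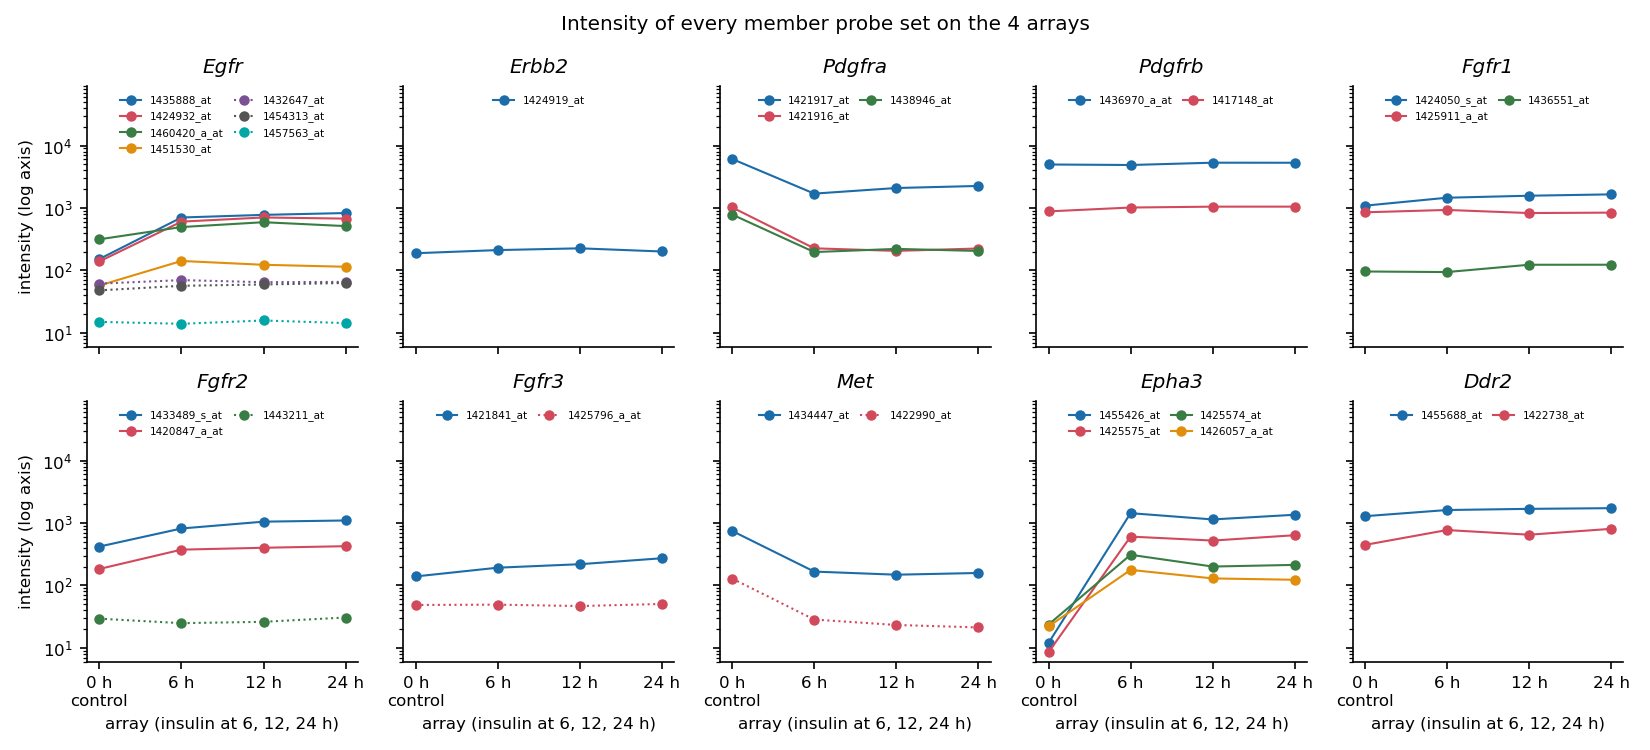
Intensity on a log axis (y) is plotted for every probe set of the 10 receptors on the 4 arrays (x), with solid lines for probe sets above the brightness filter and dotted lines for those below. Lines go up between 0 and 6 h for Epha3 and for the brighter Egfr probe sets and down for Pdgfra and Met, while values from 6 to 24 h run nearly level. Heights of different probe sets cannot be compared.

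Differences of this size were also seen elsewhere on the array. A mean difference from 0 h at least as large as that of the brightest probe set was found for 0.0452% of named probe sets above the filter in the case of Epha3, 3.79% for Egfr, 4.05% for Met, 7.32% for Pdgfra and 11.5% for Fgfr2. For Fgfr3, Fgfr1 and Ddr2 it was 26.7%, 37.1% and 48.6%, and for Pdgfrb 91.1%.

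**Figure D3:**
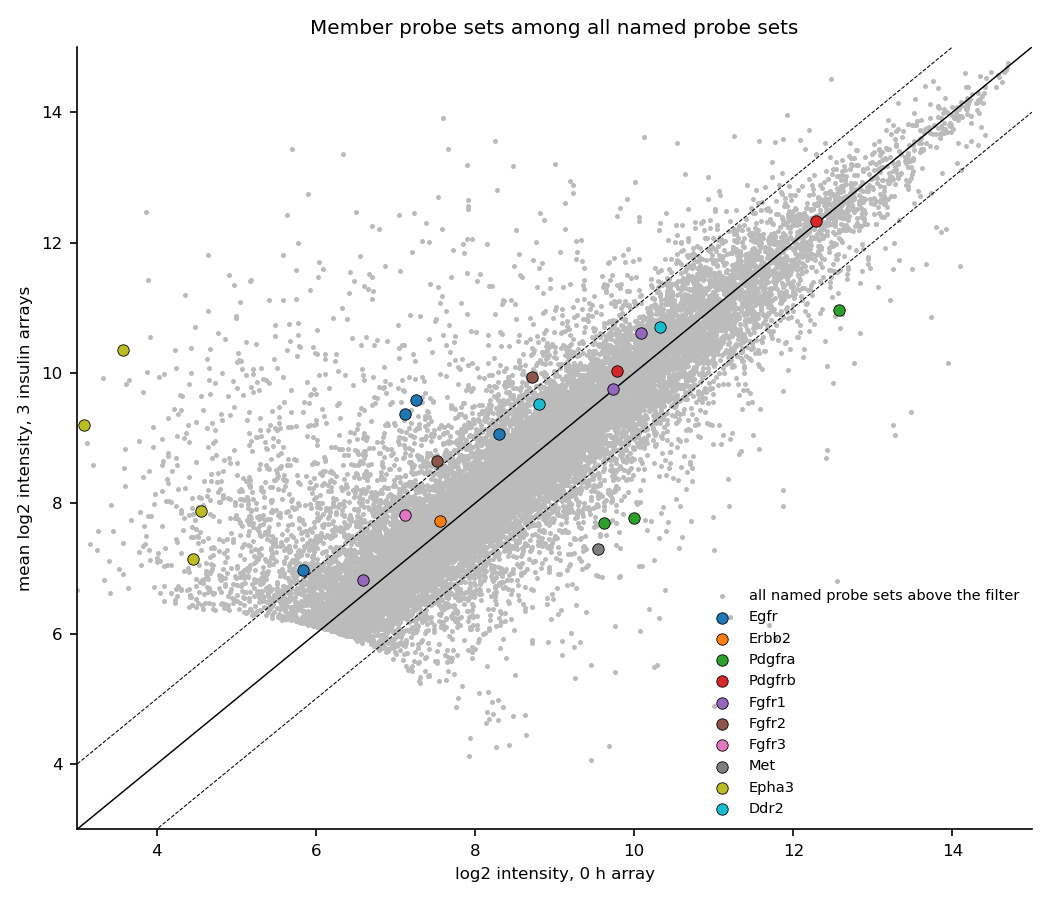
Each grey point is 1 of 19915 named probe sets above the filter, by log2 intensity on the 0 h array (x) and mean log2 intensity on the 3 insulin arrays (y), and coloured points are the 23 member probe sets. Epha3 lies at the dim end of the control axis far above the upper dashed 2-fold line, Pdgfra and Met lie below the lower one, and Pdgfrb and Erbb2 lie near the diagonal.

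The genes with a pattern most like that of the members farthest from 0 h were found by the smallest Euclidean distance over the 4 log2 intensities, each centred on its own mean, among 11656 other genes. For Epha3 they were Zic1, Grb10 and Rps4l at distances of 0.21, 0.22 and 0.30. For Egfr they were Me1, Crispld2 and Chn1 at 0.0356, 0.0715 and 0.0813, and for Met they were Tcim, Capn6 and Mmp9 at 0.0683, 0.0937 and 0.10. With 4 arrays and 1 of them apart, the measure mostly ranks genes by their distance from 0 h. Within 0.5 there were 9 genes for Epha3, 275 for Egfr and 99 for Met.

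Among the insulin arrays alone the receptors moved little. Only 1 of the 23 probe sets, 4.35%, spanned at least 1.5-fold from its lowest to its highest insulin array, against 2.74% of all named probe sets above the filter. It was a dimmer Epha3 probe set, with 309, 201 and 213 at 6, 12 and 24 h. The other dim Epha3 probe set was also highest at 6 h (177, 129 and 123). The 2 brighter ones had their lowest value at 12 h and 24 h values within 1.06-fold of those at 6 h, so a fall between 6 and 24 h was not common to the gene's probe sets. From 6 to 12 h 1 member probe set was at least 1.5-fold lower, against 0.688%, and 0 were higher, against 0.929%. From 6 to 24 h 0 were past that size in either direction, against 1.44% higher and 0.502% lower, and from 12 to 24 h likewise 0, against 0.156% and 0.0854%.

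Outside Epha3, the probe sets above the filter that spanned most over the insulin arrays were of Fgfr3, Fgfr2 and Pdgfra. The brighter Fgfr3 probe set was 1.42-fold higher at 24 h than at 6 h, and 4.58% of named probe sets above the filter had a range over the insulin arrays at least as large. The brightest Fgfr2 probe set was 1.34-fold higher and the second 1.14-fold, and both were in the order 6, 12 and 24 h. The brightest Pdgfra probe set was 1.33-fold higher at 24 h than at 6 h, while its other probe sets differed by 1.01 and 1.04-fold between those times. Of the 23 probe sets 15 were higher at 24 h than at 6 h by any amount, against 46.5% of all, and 9 were in rising order over the 3 times, against 16.2%. Summed cartilage markers moved the same way over these arrays, with 6260, 9529 and 10745.5 at 6, 12 and 24 h, as did osteoblast markers with 55583, 63885 and 67306. Adipocyte markers had 3989, 6346 and 8205 and macrophage markers 4921, 6099 and 6892, also in rising order. The epithelial sum was 505, 526 and 537, below the 625 of 0 h, but its genes parted. Epcam, the brightest, had 269, 305 and 314, and Cdh1 also rose. Krt8, Krt18, Krt5 and Krt14 were lower at 24 h than at 6 h. Smooth muscle markers had 43748, 46192 and 43536 and endothelial markers 258, 229 and 237, neither in rising order. The part of these lists in the receptor differences was not tested.

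**Figure D4:**
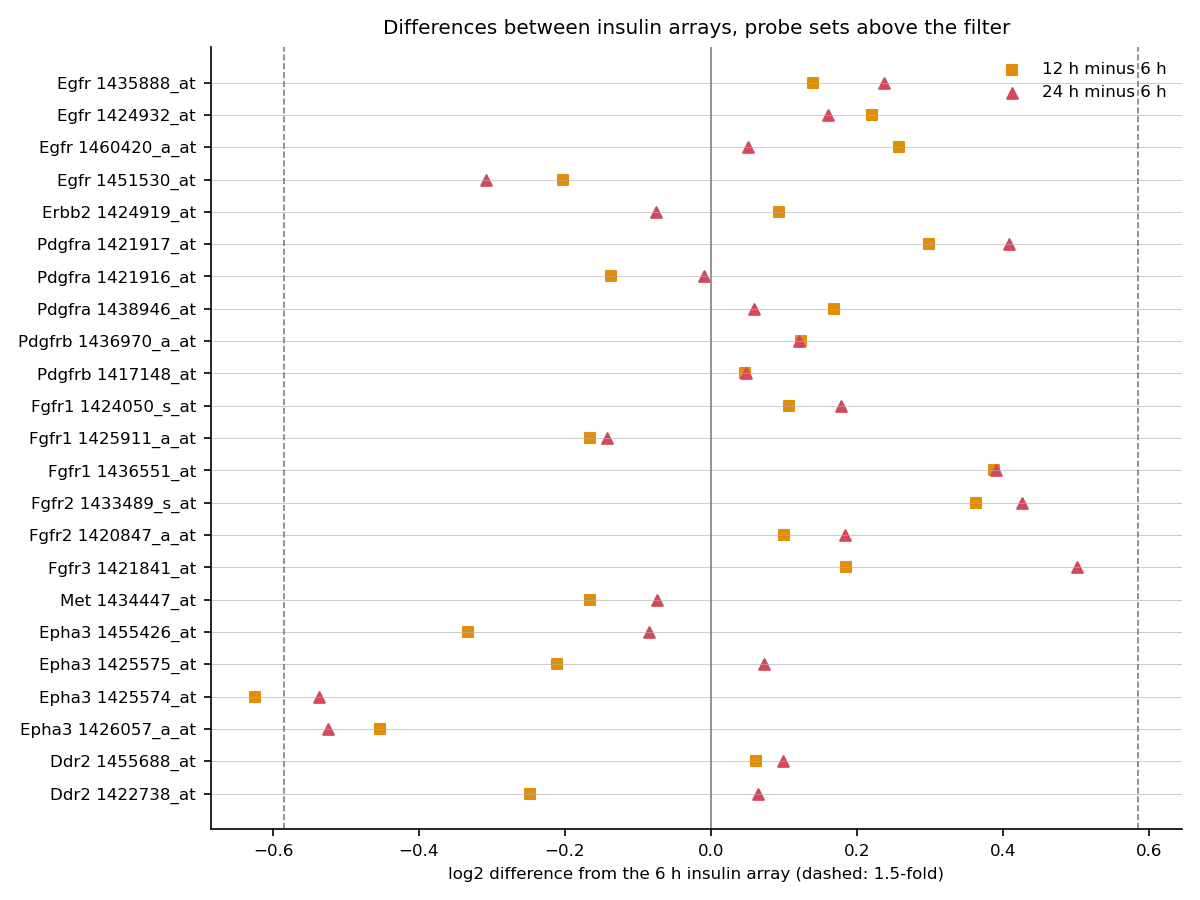
The log2 difference from the 6 h insulin array (x) is plotted for the 23 probe sets above the filter (rows), with squares for 12 h, triangles for 24 h and dashed lines at 1.5-fold. The brighter Fgfr3 probe set reaches farthest right at 24 h, and 1 Epha3 probe set passes the left line at 12 h.

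Ligands of these receptors and of their wider families were set beside them, each by its brightest probe set. The list also held the ephrin-B genes Efnb1, Efnb2 and Efnb3 and the neuregulin genes Nrg1, Nrg2, Nrg3 and Nrg4. Its counts are thus not of ligands of the 10 members alone. Of 48 ligand genes listed, 25 were above the filter, and 8 of these were at least 2-fold higher than 0 h at all 3 times and 1 lower. Over all 11657 genes above the filter the shares were 10.0% and 4.0%. Of the 8, Pdgfd, Fgf9 and Col10a1 were below the filter value at 0 h and passed through their insulin values, so being higher was built into their passing. The median log2 difference of the 25 was 0.50, 0.61 and 0.45 at 6, 12 and 24 h, against 0.01, 0.03 and 0.00 over all genes. Hbegf, a ligand of EGFR, had 146, 700.0, 565 and 557 at 0, 6, 12 and 24 h, or 4.79, 3.86 and 3.81-fold higher. Hgf, the ligand of MET, was the lower 1, with 314, 154, 130 and 141, or 2.04, 2.42 and 2.22-fold lower. The gene for the ligand and the gene for its receptor were thus both lower on the insulin arrays for Hgf and Met, and both higher for Hbegf and Egfr. Efna3 and Epha3 were also both higher, as were Fgf9 and Fgfr2. Fgf9 and Epha3 were below the filter value at 0 h, and Fgfr2 passed 2-fold at all 3 times by its second probe set alone. Some other pairs parted. Pdgfa was higher while Pdgfra was lower, and Pdgfd was higher while Pdgfrb was near its control level. The ephrin-A genes Efna1 and Efna4 were lower, by less than 2-fold, while Epha3 was higher. Tgfa, the gene for another EGFR ligand, was less than 2-fold from 0 h at each time.

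Among the PDGF chain genes, Pdgfa and Pdgfd were higher with insulin and Pdgfc, a PDGFRA ligand gene, was less than 2-fold from 0 h, with 2163, 2840, 2648 and 2669 at 0, 6, 12 and 24 h. Pdgfd, whose product binds PDGFRB, had 37.3, 89.2, 119 and 106, and Pdgfa, which falls outside the rule for named genes and was picked after its values were seen, had 453, 939, 1089.7 and 1038. Both were at least 2-fold higher at all 3 times. Pdgfb was below the filter. Fgf9, a ligand of FGFR2 and FGFR3 isoforms, had 27.4, 163, 206 and 159. Of 18 FGF genes, 3 were above the filter, and Fgf9 was the only 1 of them past 2-fold. Efna3, an ephrin that binds EphA receptors, had 96.9, 233, 287 and 222, and Efnb1, also picked after its values were seen, had 181, 393, 496 and 474. Of the collagens that can engage DDR2, the cartilage collagens Col2a1 and Col10a1 were 13.2, 19.5 and 21.8-fold and 4.96, 7.47 and 8.66-fold higher at the 3 times. Type I and III collagen genes, by their brightest probe sets, were less than 2-fold from 0 h. The median log2 differences over the 6 collagens were 0.65, 0.71 and 0.71.

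Adaptors act downstream of the receptors, and the inhibitors listed with them act on the receptors or on their signal. Of 32 listed, 27 were above the filter, and at all 3 times 0 of them were at least 2-fold higher and 1 was lower. The shares over all genes were 10.0% and 4.0%. The list had median log2 differences of 0.12, 0.14 and 0.08. The lower 1 was Lrig1, a membrane protein that promotes the degradation of EGFR and MET, with 1223, 546, 396 and 481 at 0, 6, 12 and 24 h. That is 2.24, 3.09 and 2.54-fold lower. Grb2, Shc1, Sos1, Gab1 and Ptpn11, which carry the signal from phosphorylated receptors, were among the 26 that did not pass.

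Of 48 other receptor tyrosine kinase genes, 46 had a probe set and 28 were above the filter. Of these 6 were at least 2-fold higher than 0 h at all 3 times, 0 were lower and 22 were neither, against the 10.0% and 4.0% of all genes. Epha1 and Styk1, among the 6, were below the filter value at 0 h and passed through their insulin values. The members' own counts by brightest probe set were 2 higher, 2 lower and 6 neither of 10. Epha1 and Epha4, relatives of Epha3, had 41.9, 163, 187 and 177 and 96.5, 434, 356 and 386 at 0, 6, 12 and 24 h. The other 4 were Csf1r, the macrophage colony-stimulating factor receptor, with 137, 676, 900.1 and 1006, Ror2, a receptor for Wnt5a, with 88.8, 266, 276 and 278, the pseudokinase gene Ptk7 with 193, 527, 463 and 476, and the kinase-like membrane protein gene Styk1 with 51.7, 121, 126 and 117. Csf1r also belongs to the macrophage marker list, of which 5 of 6 genes above the filter were at least 2-fold higher and 1, Cd14, was lower. Of these 5, Cd68 and Ptprc were below the filter value at 0 h and passed through their insulin values, so being higher was built into their passing. Itgam, another macrophage marker, was below the filter, with 20.3 at 0 h and 21.3, 26.6 and 26.1 with insulin. Insr, the insulin receptor, had 369, 181, 206 and 215, and Igf1r had 388, 259, 265 and 319 by its brightest probe set. Another Igf1r probe set above the filter moved the opposite way, with 74.7, 139, 120 and 119. None of these probe sets was 2-fold apart at all 3 times. Where the Igf1r probe sets lie relative to a deleted part is not stated in the labels.

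**Figure D5:**
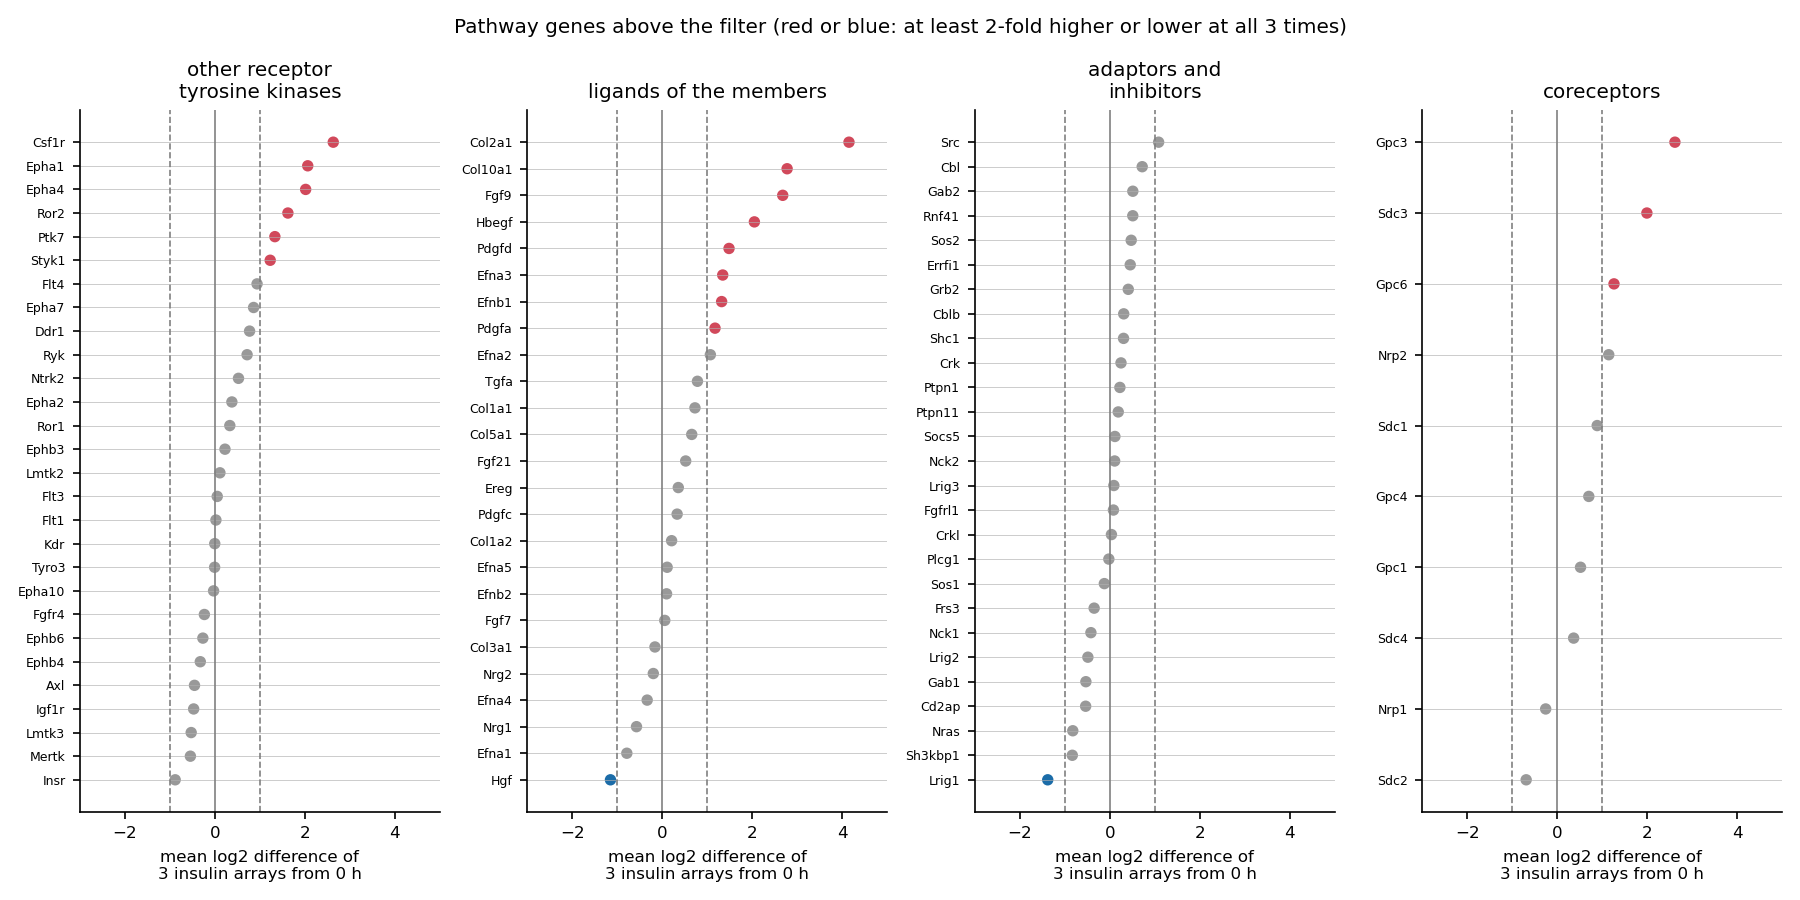
The mean log2 difference of the 3 insulin arrays from 0 h (x) is plotted for each gene above the filter (rows) in 4 lists, with red for genes at least 2-fold higher and blue for genes at least 2-fold lower at all 3 times. The adaptors and inhibitors lie mostly between the dashed 2-fold lines, with Lrig1 below, and Hgf is the blue ligand.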

How the data were processed

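The deposited values are intensities, 1 for each probe set on each array, that the authors made with RMA (background correction, normalization across arrays and a summary over probes), per the submitters' processing notes. They were read as linear from their range of 7.34 to 31292. Neither software nor genome build is stated in the sources used here. RMA compresses differences of dim probe sets. Log2 was taken with no further normalization. The table has 45101 rows, 64 of them controls. The platform's annotation, which can be old, named 1 gene for 34945 of the rest, several for 932 and none here for 9160. Member probe sets were used singly, and other genes by their probe set with the highest mean. Median intensities of the 4 arrays were 64.97 to 65.75. Probe sets with a mean below 67.8 were left out of counts.

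With 1 array per group no test was made. Differences of at least 2-fold, or 1.5-fold over insulin arrays, were counted, and the same was counted over all named probe sets or genes. The numbers measure differences between 4 arrays, which may be technical. The members and lists were chosen with earlier results of these data known. Under the rule, named genes were the members, up to 6 genes per list and direction past 2-fold at all 3 times, a few fixed checks, and the 3 nearest patterns of 3 members. Some listed genes outside this rule were named too, such as Pdgfa, Pdgfb, Pdgfc, Tgfa, Efnb1, Fgf18, the coreceptors and adaptors such as Grb2. Promoter windows from RefSeq (GRCm38.p6) were searched for 6 motifs, and chromosomes are from the RefSeq gene table of that assembly. The script that makes the 2-fold and range calls was checked on simulated data with known differences. Alternatives were other fold thresholds, brightness filters, scalings, probe set rules and the removal of chromosome medians. Python 3.11.15, numpy 2.4.6, pandas 2.3.3 and matplotlib 3.10.9 were used.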

Additional observations from a re-analysis of the deposited data

How the results depend on the processing

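Of 42 counts recomputed under another setting, 37 stayed within 1.5 times the reported count. The number of member probe sets spanning 1.5-fold over the insulin arrays, 1 as reported, was 0 at 2-fold and 0 at 3-fold. The number of other receptor tyrosine kinase genes higher at all 3 times, 6 as reported, was 10 at 1.5-fold and 3 at 3-fold, and the number lower, 0 as reported, was 1 at 1.5-fold. The member counts of 7 higher and 4 lower ran from 5 to 10 and from 3 to 5 over the settings tried. All 40 recomputed member differences kept their sign. Centring, quantile normalization and removal of chromosome medians moved them by at most 0.00957, 0.0727 and 0.25 log2, and the mean of all probe sets per gene by up to 2.05, for Epha3, whose difference was then 4.72 in place of 6.77. With that mean Egfr had 0.98 in place of 2.33 and Fgfr2 0.74 in place of 1.22, which ends the 2-fold size of both. By the same mean Fgfr3 had 0.35 in place of 0.69, Fgfr1 0.26 in place of 0.52 and Pdgfrb 0.15 in place of 0.05. With chromosome medians removed Fgfr1 had 0.77 in place of 0.52, Ddr2 0.17 in place of 0.38 and Pdgfrb 0.12 in place of 0.05. No paired analysis was possible because each group holds 1 array. Signal near background limits the Epha3 folds and the dimmer Met probe set.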

Other observations

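Coreceptors that help ligands of these receptors to bind were read from a list of 12 genes, with 10 above the filter. Of these, 3 were at least 2-fold higher than 0 h at all 3 times and 0 were lower, against 10.0% and 4.0% of all genes. They were chosen for naming after their values were seen. Gpc3, a glypican anchored in the membrane, had 91.5, 602, 577 and 511 at 0, 6, 12 and 24 h, Sdc3, a syndecan that carries heparan sulfate, had 518, 1932, 2139.9 and 2131, and Gpc6 had 561, 1253, 1538 and 1266. Another Sdc3 probe set above the filter had the opposite sign. Sdc2, another syndecan, had 3373, 2215, 2071 and 1994, and another Sdc2 probe set above the filter also had the opposite sign to these values. The FGF coreceptor genes Kl and Klb were below the filter. Fgf18, a ligand of FGFR3 in the growth plate, was also below the filter, with 25.3, 55.1, 86.6 and 62.7.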
